A study of Homo sapiens with 16 samples.

Results

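The regions described here are 3808 distal stretches of the human genome that carried the histone mark H3K4me1 in control neuroblastoma cells and no longer had a called stretch of it after knockdown of the histone demethylase KDM6B. They were chosen from the island calls of 4 H3K4me1 libraries. Islands of both siCtrl and both siKDM6B33 libraries were merged wherever they overlapped by at least 1 bp, which gave 30505 regions. A merged region was kept when it lay on an autosome, overlapped an island of both siCtrl libraries and of neither siKDM6B33 library, and held no start of a protein-coding transcript inside it or within 1 kb. Of the 18863 autosomal regions that met the distance condition, 20.2% were lost by this rule, 8507 had islands in all 4 libraries (constant regions) and 2082 had islands in both siKDM6B33 libraries only (gained regions). These calls chose the regions, so values from the same 4 libraries are given as a description without a test.

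All libraries came from BE2C, a MYCN-amplified human neuroblastoma cell line, profiled by CUT&Tag, in which an antibody directs a transposase to tag DNA beside a chromatin mark. The knockdown experiment compared a control siRNA (siCtrl) with the KDM6B siRNA siKDM6B33 at 72 h. The compound experiment compared 0.1% DMSO with 2.5 µM GSK-J4, an inhibitor of the KDM6 demethylases, also at 72 h. H3K4me1 and H3K27me3 were each profiled in 2 libraries of every condition, 16 libraries in 8 groups, from 1 cell line and, for the knockdown, 1 siRNA sequence. The study calls the libraries of a group biological replicates without saying what separates them, and the tests measure only the spread between these libraries. The level of KDM6B itself was not measured in these libraries.

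H3K4me1 marks enhancers, the distal sequences that raise transcription of genes from afar, and is written mainly by the KMT2C and KMT2D methyltransferases. H3K27me3 is the repressive mark laid down by the Polycomb complex PRC2, and KDM6B removes methyl groups from it. Active enhancers normally carry H3K4me1 and lack H3K27me3.

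Depth differed between the libraries. The background tag density that the narrow peak values imply was 0.0849 to 0.0902 tags per base in the siCtrl H3K4me1 libraries, 0.105 to 0.107 in siKDM6B33, 0.0483 to 0.0569 in DMSO and 0.0547 to 0.0559 in GSK-J4. The siKDM6B33 libraries were thus the deepest and DMSO replicate 2 the shallowest. H3K4me1 islands numbered 17765 to 24917 per library. Among the H3K27me3 libraries siKDM6B33 was also deeper than siCtrl, with 0.0539 and 0.0529 against 0.0395 and 0.0401 tags per base, and its islands were more numerous (15947 and 15775, against 10555 and 10592) and covered 89.8 and 87.3 Mb, against 53.7 and 54.2 Mb. GSK-J4 H3K27me3 replicate 1 stood apart, with 16676 islands of median width 2999 bp, whereas the other 3 H3K27me3 libraries of the compound experiment had 7175 to 8006 islands of median width 6599 to 7399 bp. Of its autosomal islands 49.1% and 51.8% overlapped an H3K27me3 island of DMSO replicates 1 and 2, compared with 79.5% and 82.8% for GSK-J4 replicate 2. Overlap with the DMSO H3K4me1 islands was 78.4% and 74.8%, close to the 75.7% to 76.0% and 69.7% to 70.6% of the other 3 libraries. Whether it measured the labelled mark as those did could not be settled from the files. Of 19 core transcription factor genes of adrenergic neuroblastoma cells, 12 and 13 had an H3K4me1 island at a start in the siCtrl libraries, and HAND2 was among those without one. After knockdown the count was 19 in both libraries. Of 24 genes of the mesenchymal cell state, 8 and 9 had an island in siCtrl and 20 and 19 in siKDM6B33. In DMSO 12 and 12 adrenergic and 13 and 11 mesenchymal genes had one, and in GSK-J4 10 and 9 adrenergic and 8 and 11 mesenchymal genes. Of all 18842 autosomal protein-coding genes 27.6% and 28.0% had an H3K4me1 island within 1 kb of a start in siCtrl, 61.2% and 61.1% in siKDM6B33, 26.4% and 24.1% in DMSO and 20.9% and 21.8% in GSK-J4, so the higher marker counts after knockdown stood beside a higher share of all genes.

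The sequences below come from the GRCh37 (hg19) assembly and show what lies under the strongest siCtrl narrow peak of 6 lost regions. Each is 101 bases long, printed 5′ to 3′ on the plus strand, and lies outside annotated exons. With exonic peaks and the regions of 1 chromosome passed over, the first 3 were the lost regions with the highest siCtrl island scores whose strongest peak held a CTCF core (the central letters bound by the insulator protein CTCF), and the capitals mark that match.
IRF8 region, chr16:86106567-86106667: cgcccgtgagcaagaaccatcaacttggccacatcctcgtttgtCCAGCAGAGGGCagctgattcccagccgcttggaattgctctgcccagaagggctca
LINGO1 region, chr15:77952193-77952293: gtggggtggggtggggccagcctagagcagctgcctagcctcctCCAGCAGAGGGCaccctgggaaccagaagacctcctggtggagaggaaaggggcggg
AKAP1 region, chr17:55198835-55198935: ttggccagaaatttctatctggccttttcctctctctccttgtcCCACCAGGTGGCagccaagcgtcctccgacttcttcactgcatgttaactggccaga

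The next 3 were chosen in the same way for TGANTCA, the letters bound by AP-1 (dimers of FOS and JUN proteins), again in capitals.
PYGB region, chr20:25203961-25204061: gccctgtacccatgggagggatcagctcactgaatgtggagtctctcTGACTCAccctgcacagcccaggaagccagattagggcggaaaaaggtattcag
ABCG1 region, chr21:43648333-43648433: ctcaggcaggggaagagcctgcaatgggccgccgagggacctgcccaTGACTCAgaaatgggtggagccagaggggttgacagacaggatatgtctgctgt
BDH1 region, chr3:197214818-197214918: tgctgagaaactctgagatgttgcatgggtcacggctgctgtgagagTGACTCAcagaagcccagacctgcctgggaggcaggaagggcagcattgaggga

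Each region is named for the protein-coding gene with the nearest start. The IRF8 region, named for a transcription factor gene, was intergenic, 158 kb from that start, and its island scores (the caller's enrichment score, without a unit) were 465 and 500.1 in siCtrl, 189.9 and 153 in DMSO, and 105 and 108 in GSK-J4. The LINGO1 region, in an intron of this Nogo receptor partner, scored 393 and 347 in siCtrl, 254 and 191 in DMSO, and 227 and 638 in GSK-J4. Both siKDM6B33 libraries lacked any narrow peak there, whereas the siCtrl peaks rose to 16 and 19 overlapping tags. In the AKAP1 region, named for a mitochondrial kinase anchor, the highest summits were 23 and 18 tags in siCtrl and 7 and 7 in siKDM6B33. The ABCG1 region, in an intron of this cholesterol exporter, had siCtrl summits of 26 and 26 tags, siKDM6B33 summits of 7 and 7, DMSO summits of 8 and 11, and GSK-J4 summits of 10 and 17. The PYGB region, named for brain glycogen phosphorylase but lying in an intron of ENTPD6, scored 181 and 184 in DMSO and 419 and 402 in GSK-J4. The BDH1 region, beside a ketone body enzyme gene, scored 133 and 132 in DMSO and 96.3 and 76.8 in GSK-J4. All 6 regions had islands in all 4 compound libraries, as did 23.9% of all lost regions, 45.5% of the third with the highest siCtrl scores and 41.8% of all distal regions. Their scores were higher with GSK-J4 than with DMSO in both libraries at PYGB and ABCG1 and lower in both at IRF8 and BDH1.

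Lost regions were the weaker part of the siCtrl H3K4me1 landscape. Their siCtrl island scores had medians of 127 and 119 in replicates 1 and 2, with ranges of 70.6 to 1194 and 67.3 to 1115, whereas constant regions had medians of 358 and 330. Of the lost regions, 95.8% and 95.7% scored below the constant median of the same library. They were also narrower, with a median width of 3199 bp (quartiles 2399 and 4399, range 799 to 18999), against 5399 bp for constant and 2799 bp for gained regions, and summed to 13.5 Mb. An island needs many tags over a long stretch, so a region without one is not a region without signal. Narrow peaks, called from shorter pileups, were present in 62.8% and 61.8% of lost regions in the siKDM6B33 libraries, against 92.5% and 93.3% in siCtrl. A peak was present in both siKDM6B33 libraries at 1821 lost regions (47.8%) and in neither at 887 (23.3%). The highest summit had a median of 8 tags in both siCtrl libraries and 4 tags in both siKDM6B33 libraries, which were sequenced more deeply. Over each library's background, the siKDM6B33 to siCtrl ratio of these summits had medians of 0.482 and 0.485 in lost regions with a peak in both libraries of a number (2280 and 2275 regions). It was 0.801 and 0.808 in constant regions, so the ratio was below 1 there too.

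**Figure D1:**
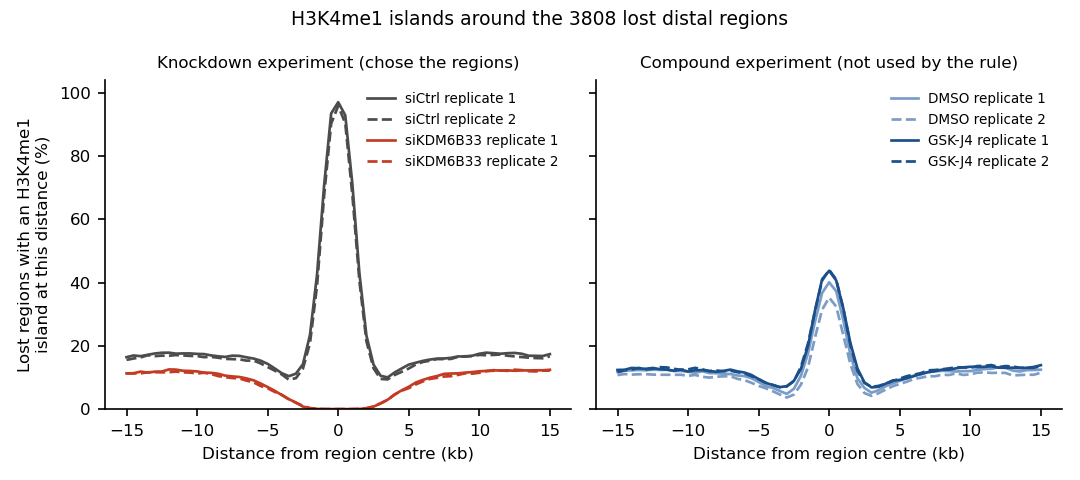
Percent of the 3808 lost regions with an H3K4me1 island at each distance (kb) from the region's centre, 1 line per library (solid replicate 1, dashed replicate 2). At the centre siCtrl reached 97.0% and 95.8% and siKDM6B33 0.0%, as the rule requires, while DMSO stood at 40.1% and 35.2% and GSK-J4 at 43.7% and 44.01%.

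By the rule no siKDM6B33 island overlapped a lost region, and the distances to the nearest one have no comparison set. The nearest siKDM6B33 island lay a median of 12.4 kb away (quartiles 4.80 and 34.6 kb), 2.52% of lost regions had one within 1 kb and 56.1% had none within 10 kb. In the plot of islands around the centres, 11.9% and 11.2% of lost regions had a siKDM6B33 island 10 kb to the left of the centre, against 17.4% and 16.8% for siCtrl. Just outside the rule, 985 distal regions kept an island in 1 siKDM6B33 library (median width 3799 bp), 1729 had one in 1 siCtrl library only (2199 bp), 36 had a start within 1 kb but not inside (3099 bp) and 187 had a start inside (3599 bp). Just inside it, 43 had a start between 1 and 2 kb away (3399 bp).

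The lost regions lay in introns and between genes about as often as distal regions in general. The centre of 2040 (53.6%) fell in an intron of a protein-coding gene, of 212 (5.57%) in an exon, of 448 (11.8%) in a lncRNA gene only and of 1108 (29.1%) between genes. The intron share was 52.6% in constant, 38.4% in gained and 50.8% in all distal regions, and the share between genes was 29.1% in all distal regions too. The nearest protein-coding start was a median of 40.6 kb away (quartiles 15.9 and 105 kb), compared with 48.0 kb for constant and 56.1 kb for gained regions. A lncRNA start within 1 kb was less common at lost regions (6.07%) than at constant (12.2%) or gained ones (18.4%). Across autosomes the share of distal regions that was lost ran from 12.6% on chromosome 13 to 27.6% on chromosome 22. Of the lost regions 45.0% had another lost region within 50 kb, and 218 runs of at least 3 such neighbours held 808 of them. Closeness was common among distal regions, since 67.1% of the more numerous constant regions and 25.1% of gained regions had one of their own kind within 50 kb, and 83.5% of lost and 78.9% of all distal regions had a distal region of any kind. The nearest distal neighbour was a lost region for 28.2% of lost, 20.1% of constant, 10.6% of gained and 20.3% of all distal regions.

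The run with most members spanned 204 kb at MLN and GRM4 (chr6:33901001-34104999) and held 12 lost, 0 constant and 0 gained regions among 14 distal ones. MLN encodes the gut hormone motilin and GRM4 a metabotropic glutamate receptor of neurons. Island calls in the siCtrl libraries scored 79.7 to 308 at the 12 regions. In the compound experiment 11 and 10 of them had an island in DMSO and 8 and 11 in GSK-J4, whereas over all lost regions 46.0% and 41.3% had one in DMSO and 49.8% and 50.0% in GSK-J4. Just beyond the right-hand end of the run, over a start of GRM4, islands scored 308 and 341 in siCtrl and 1049 and 708 in siKDM6B33, and that stretch was no lost region. Other runs lay at LAPTM5 and SDC3 on chromosome 1 (9 lost of 11 distal regions), at SULF2 on chromosome 20 (8 of 13), at COL22A1 on chromosome 8 (8 of 11), at ZMIZ1 on chromosome 10 (7 of 12) and at TSPAN18 and TP53I11 on chromosome 11 (7 of 11). Their compound calls were not alike, with 3 and 3 of the 8 SULF2 members in DMSO and 3 and 4 in GSK-J4, and 7 and 6 of the 9 members at LAPTM5 and SDC3 in DMSO and 6 and 6 in GSK-J4.

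**Figure D2:**
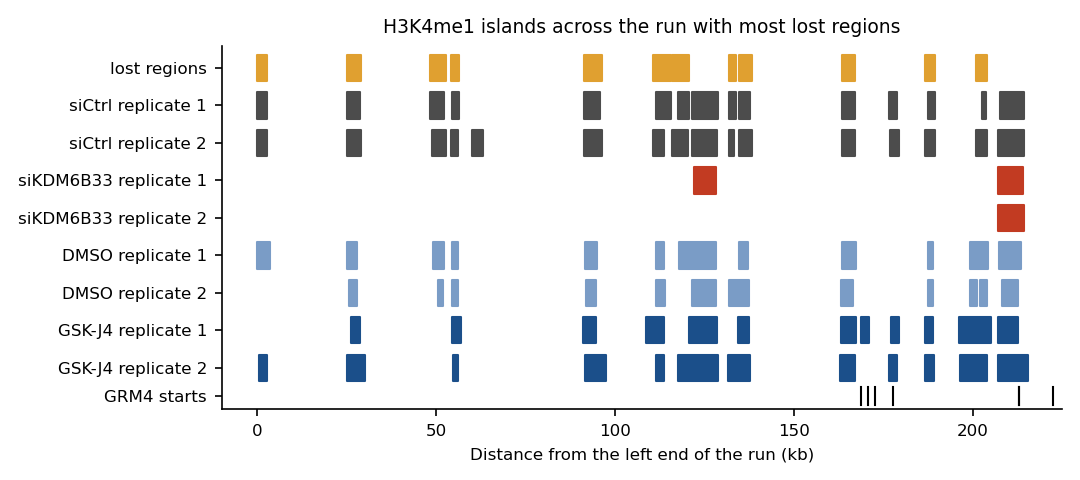
Islands of the 8 H3K4me1 libraries across the 204 kb run at GRM4, as bars at their distance (kb) from its left end, with the 12 lost regions on top and GRM4 starts as ticks below. siCtrl, DMSO and GSK-J4 islands recur along the run, whereas siKDM6B33 islands appear at 1 stretch in replicate 1 only and, just beyond the right-hand end, over a GRM4 start in both libraries.

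Lost regions were assigned to the gene with the nearest start, which need not be the gene they act on. In all 2425 of 18842 autosomal protein-coding genes (12.9%) were nearest to at least 1, and 33.5% were nearest to a distal region of any kind. SULF2, which encodes an extracellular enzyme that trims heparan sulfate, led with 14 lost of 31 distal regions, followed by GRM4 with 11 of 14, the synaptic adhesion gene LRFN2 with 11 of 20, and the transcriptional activator gene CAMTA1 with 10 of 28. AUTS2, KALRN, LINGO1 and SFSWAP followed with 9 each. Their compound-experiment calls are given without a test, to be read beside the 46.0% and 41.3% of all lost regions in DMSO and 49.8% and 50.0% in GSK-J4. The 9 regions nearest to SFSWAP, a splicing regulator singled out after its values were seen, had 1 and 1 islands in DMSO and 8 and 8 in GSK-J4. The 9 nearest to KALRN, a signalling gene of neurons, had 2 and 1 in DMSO and 2 and 2 in GSK-J4. LINGO1 regions had 7 and 7 in DMSO and 8 and 8 in GSK-J4, SULF2 regions 5 and 5 of 14 in DMSO and 4 and 7 in GSK-J4, LRFN2 regions 7 and 5 of 11 in DMSO and 7 and 9 in GSK-J4, CAMTA1 regions 5 and 5 of 10 in DMSO and 5 and 4 in GSK-J4, GRM4 regions 10 and 10 of 11 in DMSO and 8 and 10 in GSK-J4, and AUTS2 regions 2 and 0 of 9 in DMSO and 5 and 3 in GSK-J4.

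The gene lists below are described by how many of their genes were nearest to a lost region, beside 12.9% of all protein-coding genes, and by the share of their distal regions that was lost, beside 20.2% of all distal regions. Neither was tested. Genes with more distal regions have more chances to be counted. Of 13 genes for making, packing and storing catecholamines, 8 (61.5%) were nearest to at least 1, and 22.7% of the 44 distal regions of that list were lost. Of 19 adrenergic core factors, 7 (36.8%) had one, yet 10.7% of their 159 distal regions were lost. ZNF536 led with 5 of 24 and LMO1 had 4 of 6, followed by EYA1 with 3 of 14 and SIX3 with 2 of 9, whereas HAND2, ISL1 and TBX2 had 0. Among 35 axon guidance genes 14 had a lost region and 18.0% of 256 distal regions were lost, with 8 at PLXNA2, 7 at PLXNA4, 7 at SLIT3 and 5 at NAV1 (plexin receptors, a SLIT ligand and a microtubule-binding guidance protein). Receptor tyrosine kinase and neurotrophin receptor genes had 6 of 18 (33.3%) with 16 lost regions (18.4% of 87), led by ALK and NTRK3 with 4 each, FGFR2 with 3 and EGFR with 2. The mesenchymal list had 6 of 24 genes with 14 lost regions (16.9% of 83), led by SOX9 with 5, FOSL2 with 4 and CD44 with 2. Cell cycle and E2F genes had 5 of 31 (16.1%) with 7 lost of 28 distal regions, 2 each at CCND1 and RRM2. Genes of H3K4 methylation had 2 of 17 (11.8%, with 22.7% of 22 distal regions lost) and PRC2 and KDM6 genes 1 of 9 (JARID2, 11.1%, with 6.67% of 15). CTCF and cohesin genes had 1 of 10 (MAU2, 10.0%, with 1 of 2), and these lists were all near the share of all genes. The 4 genes of the MYCN neighbourhood had 0 of 10 distal regions lost. The rule counts only missing islands, so a weaker signal under a kept island is not seen. MYCN is amplified in these cells, and the part of copy number in these calls was not tested. The study, using scaled read counts, reports lower H3K4me1 at the enhancer region beside MYCN after KDM6B inhibition. It also reports several raised peaks there with GSK-J4. The median number of lost regions per gene was 1 for the catecholamine list and 0 for the other lists and for all genes.

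At the catecholamine genes the scores show what these counts hold. The lost region 35.4 kb from the start of TH, the rate-limiting enzyme of catecholamine synthesis (chr11:2228401-2236199), scored 335 and 315 in siCtrl, 164 and 134 in DMSO, and 129.5 and 209.6 in GSK-J4. Of the 2 regions beside CHGA (chromogranin A, a granule protein), the nearer scored 160.4 and 138 in siCtrl, 112 and 73.9 in DMSO, and 81.5 and 76.3 in GSK-J4. SLC18A2, the vesicular monoamine transporter, held 2 lost regions in its introns. The stronger scored 217 and 224 in siCtrl and 103 and 77.3 in DMSO, with no island in GSK-J4. DDC and SCG3 each had 1 lost region that lacked an island in all 4 compound libraries. TH, DDC and SCG3 were picked for this paragraph after their values were seen. Over the 10 lost regions of this list, 7 and 6 had an island in DMSO and 6 and 5 in GSK-J4. No difference between DMSO and GSK-J4 was tested for any list. Over the 46 lost regions of the axon guidance list 23 and 21 had an island in DMSO and 30 and 32 in GSK-J4, over the 16 of the receptor list 13 and 10 in DMSO and 9 and 9 in GSK-J4, and over the 17 of the adrenergic list 9 and 6 in DMSO and 6 and 8 in GSK-J4. The 14 of the mesenchymal list had 6 and 5 in DMSO and 5 and 7 in GSK-J4. The 7 of the cell cycle list had 3 and 3, and 3 and 4. The libraries overlapped for the mesenchymal and adrenergic lists and tied at 1 value for the cell cycle and catecholamine lists. Over all lost regions the shares were 46.0% and 41.3% in DMSO and 49.8% and 50.0% in GSK-J4.

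The compound experiment asks whether inhibitor treatment removed H3K4me1 from the same regions. More lost regions had an island with GSK-J4 than with DMSO. Islands were present at 46.0% and 41.3% of the 3808 regions in the DMSO libraries and at 49.8% and 50.0% in the GSK-J4 libraries, so the groups did not overlap. Over all 18863 distal regions the shares were 57.1% and 53.4% in DMSO and 56.1% and 56.8% in GSK-J4, which overlapped and differed by 1.21 points (p = 1.0, exact permutation test). The means at lost regions were 43.6% ± 3.27 (SD, n = 2) and 49.9% ± 0.13 (SD, n = 2), a difference of 6.26 percentage points (exact two-sided permutation test, p = 0.333, the smallest p that 2 against 2 libraries allow). When every library was trimmed to the same covered length the difference was 2.30 points and the groups overlapped, and with narrow peaks of −log10 q of at least 5 it was 3.48 points. Without DMSO replicate 2, the shallowest library, it was 3.95 points. Constant regions moved the other way, from 88.3% and 85.7% in DMSO to 82.5% and 83.6% in GSK-J4, a difference of -3.95 points (p = 0.333, exact). Gained regions had islands at 11.7% ± 3.40 (SD, n = 2) in DMSO and 13.8% ± 0.0340 (SD, n = 2) in GSK-J4, which overlapped. Within each library the share of lost regions minus that of constant regions changed by 10.2 points (exact permutation p = 0.333), and by 11.0 points against the 3090 constant regions no wider than the upper width quartile of the lost ones, a comparison added after the data were seen. With narrow peaks of −log10 q of at least 2 in place of islands, the 10.2 points became 6.09.

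**Figure D3:**
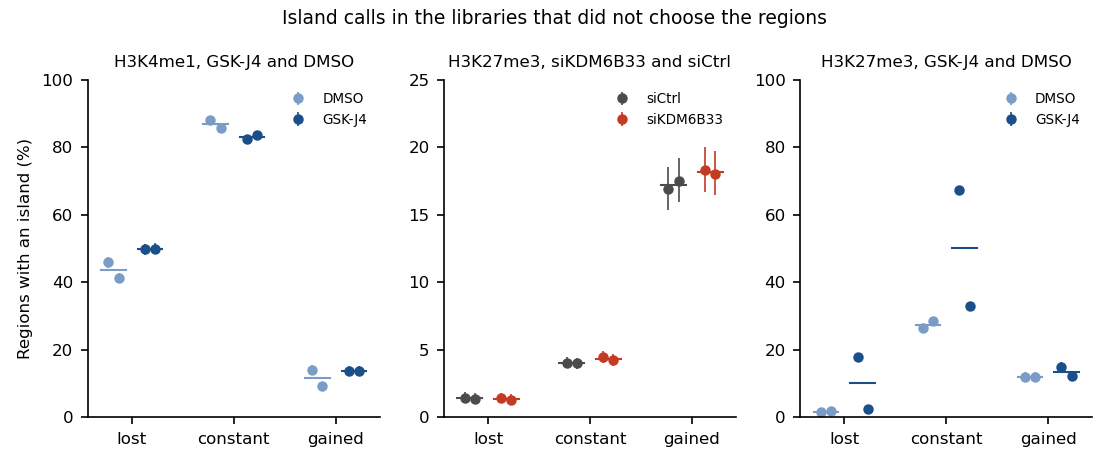
Percent of lost (3808), constant (8507) and gained (2082) regions with an island in each library not used by the rule, points with 95% Wilson intervals (counting error only) and group means as bars, with the middle axis ending at 25%. For H3K4me1 the GSK-J4 libraries sat above DMSO at lost regions (49.8% and 50.0%, against 46.0% and 41.3%) and below it at constant regions, and GSK-J4 H3K27me3 replicate 1 stood far above the other 3 libraries at lost and constant regions.

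Of the lost regions 1588 (41.7%) had an H3K4me1 island in neither GSK-J4 library, against 12.4% of constant regions, and 1110 of the 1588 had none in either DMSO library. Islands were present in both DMSO and neither GSK-J4 library at 200 lost regions (5.25%), against 3.42% of all distal regions, and in both GSK-J4 and neither DMSO library at 352 (9.24%), against 4.35%. Another 910 (23.9%) had islands in all 4 libraries, against 41.8% of all distal regions, and 1110 (29.1%) had none in any, close to the 29.6% of all distal regions. The remaining 1236 (32.5%) were mixed, with an island in only 1 of the 2 libraries of at least 1 group. Among the mixed regions, an average of 44.3 fell into each pattern of exactly 1 DMSO and 1 GSK-J4 library. That number is only a part of the uneven calling between replicates, which took in all 1236. DMSO and siCtrl cells are controls of separate experiments, and all compound H3K4me1 libraries were shallower than siCtrl. The share without an island in any compound library was 29.1% at lost and 5.54% at constant regions, both of which were called in both siCtrl libraries.

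Split by siCtrl score or by annotation, the lost regions differed unequally between the GSK-J4 and DMSO libraries. The scores came from libraries that chose the regions. The exact permutation p of 0.333 given below is the smallest that 2 against 2 libraries allow, so these splits are a description. Among the 1269 lost regions with the lowest siCtrl scores (up to 91.7 in the weaker library), 24.8% and 21.4% had an island in DMSO and 34.7% and 35.5% in GSK-J4. Among the 1270 with the highest scores (137 and above) the shares were 71.7% and 67.2% in DMSO and 67.7% and 68.8% in GSK-J4, which overlapped. The lowest-score group thus differed by 11.9 points and the highest-score group by -1.18, and the difference between these was 13.1 points (exact permutation p = 0.333). Lost regions centred in introns had islands at 42.1% and 37.3% in DMSO and at 50.9% and 50.8% in GSK-J4, a difference of 11.2 points. Intergenic lost regions had 50.9% and 46.5% in DMSO and 45.6% and 47.4% in GSK-J4, a difference of -2.21 points with overlapping groups. Introns minus intergenic regions gave 13.4 points (exact permutation p = 0.333). The 212 lost regions centred in exons had 43.9% and 41.5% in DMSO and 56.6% and 53.3% in GSK-J4, and the 448 in lncRNA genes only had 52.5% and 46.9% in DMSO and 52.2% and 51.1% in GSK-J4, which overlapped. Accordingly 11.0% of intronic and 6.32% of intergenic lost regions had islands in both GSK-J4 libraries and neither DMSO library, and 3.19% and 8.12% had the opposite pattern. No alternative setting was run for these splits, and the part of depth in them was not tested. The GSK-J4 libraries were deeper than DMSO replicate 2 and slightly shallower than DMSO replicate 1.

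**Figure D4:**
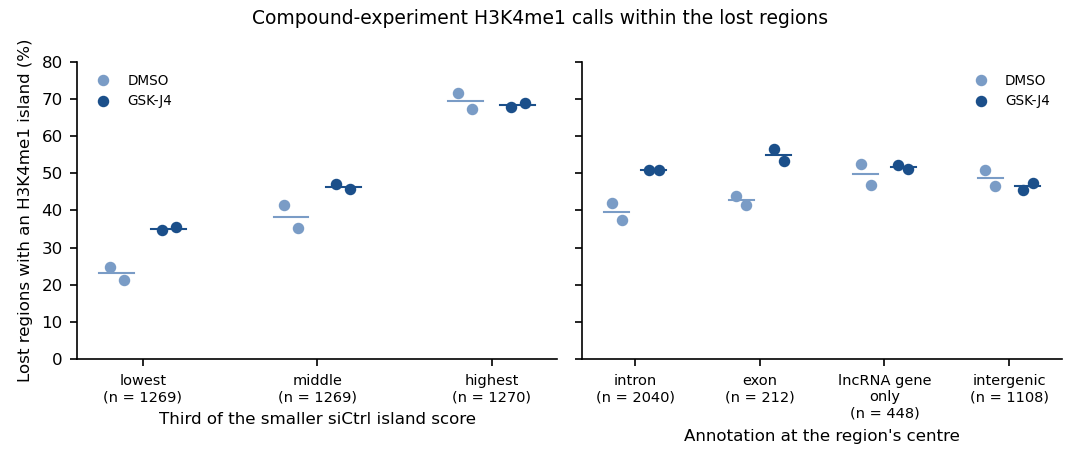
Percent of lost regions with an H3K4me1 island in each DMSO and GSK-J4 library (points, with group means as bars), by smaller siCtrl island score in 3 groups of equal size (left) and by annotation at the centre (right). GSK-J4 exceeded DMSO in both libraries for low scores (34.7% and 35.5%, against 24.8% and 21.4%) and for introns (50.9% and 50.8%, against 42.1% and 37.3%), as well as for exons, and overlapped it for high scores, lncRNA genes and intergenic regions.

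The 5 lost regions with the highest smaller siCtrl score had islands in all 4 compound H3K4me1 libraries. Of the third with the highest scores, 45.5% had islands in all 4 and 10.2% in none. First was a 14799 bp stretch in an intron of LRP8, which encodes a receptor for reelin and apolipoprotein E (chr1:53752001-53766799). It scored 1194 and 1115 in siCtrl, 258 and 94.3 in DMSO, and 200.2 and 214 in GSK-J4, and it was also among the 5 widest. Next came an intergenic region near HS3ST6, a heparan sulfate sulfotransferase gene (chr16:1955801-1960599), with 745 and 899 in siCtrl, 146 and 145 in DMSO, and 149.7 and 209.7 in GSK-J4. A region 7.41 kb from PDGFB, a growth factor gene (chr22:39648401-39652199), scored 722 and 768 in siCtrl, 192 and 213 in DMSO, and 308 and 347 in GSK-J4. A region in an intron of KANK4, a cytoskeletal adaptor gene (chr1:62772401-62779399), scored 788 and 715 in siCtrl, 172 and 127 in DMSO, and 148 and 99.9 in GSK-J4. The region near the serine protease gene HTRA3 (chr4:8259801-8265399) scored 731 and 696 in siCtrl, 381 and 331 in DMSO, and 291 and 659 in GSK-J4. These 5 were also the strongest among the 910 with islands in all 4 compound libraries. Scores depend on depth, so they are not compared across the experiments.

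The widest lost regions varied in their compound calls. The first of them, 18999 bp in an intron of the inositol phosphate kinase gene ITPK1 (chr14:93518601-93537599), scored 707 and 328 in siCtrl, 171 and 116 in DMSO, and 125 and 186 in GSK-J4. A 17799 bp region in an intron of the formin gene FMN1 (chr15:33423201-33440999) had siCtrl scores of 382 and 188. An intergenic region of 14599 bp, 205 kb from the receptor phosphatase gene PTPRU (chr1:29768201-29782799), scored 177 and 303 in siCtrl and had neither an island nor a narrow peak in any compound H3K4me1 library. The last of the 5 widest, 13999 bp near ARC, an activity-regulated neuronal gene, scored 424 and 735 in siCtrl, 99.6 and 62.2 in DMSO, and 416 and 394 in GSK-J4.

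Among the 200 lost regions with islands in both DMSO and neither GSK-J4 library, those with the strongest siCtrl signal lay near VPS13C, RSPO1, KIAA1671, RPS6KA4 and RMI2. The region in the neighbourhood of VPS13C, a lipid transfer gene (chr15:62121601-62124599), was 226 kb from any siKDM6B33 island and scored 427 and 459.7 in siCtrl and 77.6 and 50.3 in DMSO. The region near RMI2, a gene of the complex that dissolves recombination intermediates (chr16:11304601-11307599), scored 340.2 and 389 in siCtrl and 121 and 123 in DMSO. Its highest summits were 32 and 26 tags in siCtrl, 6 and 6 in siKDM6B33, 10 and 12 in DMSO, and 5 and 6 in GSK-J4, so tags remained below the island call. The region near RPS6KA4, a stress-activated kinase gene (chr11:64173001-64178399), had summits of 7 and 7 tags in DMSO and 4 and 3 in GSK-J4. The region near RSPO1, a Wnt pathway ligand gene (chr1:38125201-38129999), scored 125 and 75.9 in DMSO, and the region in an intron of KIAA1671 (chr22:25368801-25374399) 57.2 and 62.2.

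H3K27me3, the mark that KDM6B removes, was nearly absent from lost regions before and after knockdown. Its islands were present at 1.44% and 1.39% of lost regions in siCtrl and at 1.42% and 1.31% in siKDM6B33, and the groups overlapped. The means were 1.42% ± 0.0371 (SD, n = 2) and 1.37% ± 0.0743 (SD, n = 2), a difference of -0.0525 points (exact two-sided permutation test, p = 0.667). Constant regions went from 4.03% to 4.34% and gained regions from 17.2% to 18.2%, and lost minus constant regions changed by -0.364 points (exact permutation p = 0.333), or by -0.00398 points against the narrower constant regions. These signs depended on the setting. The change at lost regions became 0.0263 points with at least 50% of the region under islands, 0.106 as a share of summed length and 0.118 with narrow peaks of −log10 q of at least 2, and lost minus constant regions became 0.727 points at equal covered length. The part of the greater depth and island length of the siKDM6B33 H3K27me3 libraries in these values was not tested beyond that trimming, under which lost regions changed by -0.525 points. No H3K27me3 island overlapped 3731 lost regions (98.0%) in any of these 4 libraries, against 93.6% of all distal regions. In all 4 libraries 34 had one (0.893%, against 4.27%). Only 3 lost regions (0.0788%, against 0.414% of all distal regions) had islands in both siKDM6B33 and neither siCtrl library, and 3 had the reverse, against 0.18%. The strongest of the former lay in an intron of TRAPPC9, 136 kb from KCNK9, with H3K27me3 scores of 357 and 339 in siKDM6B33, and the others were intergenic regions near NDUFA10 (81.5 and 66.2) and AUTS2 (68.7 and 51.3).

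In the compound experiment the H3K27me3 island result rested mostly on 1 library, whereas narrow peaks were more common in both GSK-J4 libraries. Narrow peaks as deposited lay at 22.2% and 26.05% of lost regions in DMSO and at 42.4% and 31.3% in GSK-J4. Over all distal regions these shares were 33.25% and 38.45% in DMSO and 57.1% and 44.1% in GSK-J4. Lost regions had H3K27me3 islands at 1.60% and 1.84% in DMSO and at 17.8% and 2.42% in GSK-J4 replicates 1 and 2. The difference of means was 8.39 points (exact permutation p = 0.333), and it was 0.696 points without GSK-J4 replicate 1, the library with the unlike islands, and 16.1 without replicate 2. At equal covered length it was 3.49 points with overlapping groups (p = 0.667, exact), with narrow peaks 13.4 points at a −log10 q of at least 2 and 3.51 at 5, and 5.12 points with at least 50% of the region covered. That library also had islands over 67.5% of constant regions, compared with 26.5% and 28.5% in DMSO and 33.0% in GSK-J4 replicate 2. Lost minus constant regions changed by -14.4 points (exact permutation p = 0.333), by -4.85 points without that library and by -23.9 without replicate 2, and with all libraries kept the alternatives ran from -14.2 to -4.56 points. In both GSK-J4 and neither DMSO library 29 lost regions had an H3K27me3 island (0.762%, against 2.56% of all distal regions), in the reverse pattern 3 (0.0788%, against 0.0371%), in all 4 libraries 26 (0.683%, against 11.9%), and in no library 3076 (80.8%, against 60.5%).

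The DNA of lost regions was slightly richer in G and C than that of other distal regions. Their GC content had a median of 49.5% (quartiles 44.5% and 54.3%), against 47.1% for constant and 43.2% for gained regions. Within the lost regions it was 51.7% in those with islands in all 4 compound libraries, 51.3% in those gained with GSK-J4, 48.7% in those lost with GSK-J4 and 47.4% in those with none. The observed to expected CpG ratio was low, with a median of 0.216 in lost, 0.229 in constant and 0.268 in gained regions.

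Motif letters were counted within 100 bp of the centre of each siCtrl narrow peak, on both strands, in 9203 and 8994 peaks of lost regions from replicates 1 and 2. These windows had a median GC content of 52.2% in lost and 53.2% in constant regions. A CTCF core was present in 0.685% and 0.756% of lost-region peaks (95% Wilson intervals 0.536 to 0.875 and 0.597 to 0.957), in 0.687% and 0.676% of constant-region peaks and in 0.712% and 0.732% of the peaks of all distal regions, so the intervals overlapped. At 250 bp each side the mean over both libraries was 1.09% in place of 0.720%, and with peaks of −log10 q of at least 5 it was 0.995%. The GC-box GGGCGG, bound by SP factors and common at promoters, was rarer in lost-region peaks (7.16% and 7.18%, intervals 6.65 to 7.71 and 6.67 to 7.74) than in constant-region peaks (10.4% and 10.6%) or all distal ones (9.66% and 9.99%). The E2F letters TTCCCGC were found in 1.13% and 0.978% of lost-region peaks and in 1.33% and 1.35% of constant ones, with intervals that overlapped in replicate 1. AP-1 letters TGANTCA were found in 8.73% and 8.70% of lost-region peaks, in 7.61% and 7.63% of constant ones and in 7.85% and 7.91% of all distal ones. The GATA letters AGATAA stood at 12.6% and 12.4%, against 11.2% and 11.0% in constant and 11.96% and 11.7% in all distal regions, and the lost and all-distal intervals overlapped in both replicates (11.9 to 13.2 and 11.7 to 12.2 in replicate 1). Peaks of gained regions, of which there were 2542 and 2436, held the GATA letters at 14.7% and 13.8%, the AP-1 letters at 6.69% and 7.18% and the GC-box at 14.9% and 14.7%. At the strongest siCtrl peak, 38 of 3690 lost regions with a peak (1.03%) held the CTCF core and 347 (9.40%) the AP-1 letters. Such letters occur by base composition alone, peaks are not replicates, and a match does not show that a factor was bound.

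**Figure D5:**
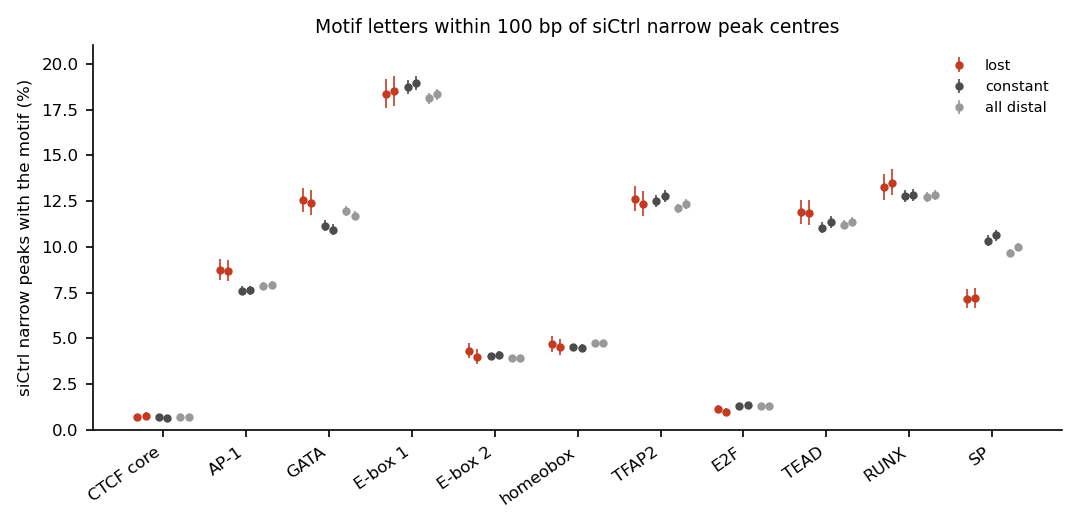
Percent of siCtrl narrow peaks with each motif within 100 bp of the peak centre, in lost, constant and all distal regions, 1 point per siCtrl library with its 95% Wilson interval (counting error only). E-box 1 is CAGCTG and E-box 2 CACGTG, and the other letters searched were homeobox TAATTA, TFAP2 GCCNNNGGC, TEAD GGAATG and RUNX TGTGGT, which can overlap each other. Lost-region peaks fell below constant ones for SP (7.16% and 7.18%, against 10.4% and 10.6%) and lay above them for GATA and AP-1.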

How the data were processed

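CUT&Tag libraries of BE2C cells were processed by the authors. Per the submitters' processing notes, reads were trimmed with Trim Galore 0.4.4, aligned with BWA 0.7.12 to hg19 and handled with Picard 1.65, SAMtools 1.3.1 and bedtools 2.25.0. The authors called broad islands with SICER 1.1 (200 bp window, 600 bp gap) and narrow peaks with MACS2 (2.1.1 in the processing notes, whereas the study's methods name another version). The island lists hold a score as deposited. The narrow peak lists hold a fold enrichment over background, a −log10 p and a −log10 q, as deposited by the authors. Fragment counts per region were not used here, so depth was described by the background tag density implied by pairs of fold and p.

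Island calls were overlapped with regions in Python 3.11.15 (numpy 2.4.6, pandas 2.3.3) and checked on simulated regions. Protein-coding starts (55764, basic set) came from GENCODE 44 lifted to hg19. Coordinates are 1-based and widths are end minus start as deposited. The tested value was the percent of regions with at least 1 bp under an island in a library, and groups of 2 libraries were compared by exact permutation of the libraries (two-sided). Wilson intervals (95%) cover counting error only. The members and gene lists were chosen with earlier results of these data known. Regions named were the 5 with the highest smaller siCtrl score, the 5 widest, the 5 with islands in both DMSO and neither GSK-J4 library, the 5 in all 4 compound H3K4me1 libraries, those that gained H3K27me3, the genes with most lost regions (ties included) and up to 4 genes per list. Printed sequences were the 3 with a CTCF core and the 3 with AP-1 letters, passing over chromosome 8 and exons. Alternatives changed the region definition, the overlap, the peak type, the covered length, the start window and the libraries used.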

Additional observations from a re-analysis of the deposited data

Results flagged for a closer look

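The share of regions with an H3K4me1 island went opposite ways with GSK-J4 in lost and constant regions. The share with an island differed by 6.26 percentage points at lost regions, higher in both GSK-J4 libraries than in both DMSO libraries, and by -3.95 points at constant regions, lower in both. The difference between the 2 changes was 10.2 points (exact two-sided permutation test, p = 0.333, the smallest that 2 against 2 libraries allow). Over all distal regions the share went from 55.2% to 56.5%, a difference of 1.21 points with overlapping groups. At lost regions the groups overlapped once libraries were trimmed to equal covered length, and they also overlapped at intergenic lost regions (-2.21 points) and at the third with the highest siCtrl scores (-1.18 points).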

How the results depend on the processing

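Among the recomputed values, 4 differences changed sign and 3 counts or shares moved beyond their limit (1.5 times for a count, 1 SD for a share), and the other 78 did neither. No test here could pass a threshold of 0.05, since the exact permutation test of 2 against 2 libraries gives at best p = 0.333, so this says little about stability. The number of lost regions was 3202 to 5491 under 6 other definitions based on islands and 12591 with narrow peaks in place of islands. The change of H3K27me3 at lost regions after knockdown (-0.0525 points) turned to 0.0263 with at least 50% of the region covered, 0.106 as a share of summed length and 0.118 with narrow peaks of −log10 q of at least 2, and lost minus constant regions (-0.364) turned to 0.727 at equal covered length. The CTCF core share moved to 1.09% (250 bp) and 0.995% (−log10 q of at least 5). H3K27me3 with GSK-J4 at lost regions (8.39 points) ran from 3.49 at equal covered length to 13.4 with narrow peaks of −log10 q of at least 2, and lost minus constant (-14.4) from -14.2 to -4.56 (share of summed length). Why these values moved was not tested.

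Leaving out 1 library gave 4334 to 4951 lost regions. In percentage points it gave 3.95 to 8.57 for H3K4me1 with GSK-J4 at lost regions, 9.19 to 11.2 for lost minus constant, -0.105 to 0.0 and -0.417 to -0.311 for H3K27me3 after knockdown, 0.696 to 16.1 and -23.9 to -4.85 for H3K27me3 with GSK-J4, and 0.685% to 0.756% for the CTCF core.

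With the replicate block, differences taken within a replicate number had the same means (6.26, 10.2, -0.0525, -0.364, 8.39 and -14.4 points) and a sign-flip p of 0.5, the smallest that 2 pairs allow. Deviations of same-numbered H3K4me1 libraries correlated at -0.00321 (siCtrl and siKDM6B33, 8507 constant regions) and -0.0927 (DMSO and GSK-J4, 910 lost regions). These values cannot tell whether same-numbered libraries shared a culture or a day, which the study does not state.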
